A study of Mus musculus with 24 samples.

Results

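The genes described here are 8 rows of a count table of mouse lung, chosen by gene symbol as haemoglobin and erythroid genes out of 26253 rows in all. They are the adult alpha globins Hba-a1 and Hba-a2, the adult beta globins Hbb-bs and Hbb-bt, the heme enzymes Alas2 and Fech, the red cell anion exchanger Slc4a1, and Bpifa5. Bpifa5 belongs by its name to the PLUNC/BPI family of secreted proteins and is not an erythroid gene. RNA was sequenced from lungs of mice fed either a control diet or one enriched in DHA (docosahexaenoic acid, an omega-3 fatty acid of fish oil) before exposure to filtered air or ozone, an oxidant gas. Each of the 4 combinations (control-diet air, control-diet ozone, DHA-diet air and DHA-diet ozone) had 6 libraries, 24 in total, with 18053493 to 26225630 counts each. The title of the series asks about protection of the lung by DHA from ozone-induced inflammation. Strain, sex, age, ozone dose, time after exposure and perfusion of the lungs are not stated in the labels, and neither is whether each library stands for its own mouse, so a p-value here reflects variation between libraries, which may be partly technical.

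Adult mouse haemoglobin is a tetramer of alpha and beta chains, each carrying a heme. Developing red cells make heme from glycine and succinyl-CoA in a pathway that starts with Alas2, the erythroid form of 5-aminolevulinate synthase, and ends with Fech, ferrochelatase, which inserts iron. Slc4a1, also called band 3, exchanges chloride and bicarbonate across the red cell membrane and anchors the membrane skeleton. Circulating red cells have no nucleus but young ones, the reticulocytes, still hold RNA, and whole lung contains blood in its vessels. In whole tissue, fewer cells of a type and less RNA per cell cannot be told apart.

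The copies of each adult globin are almost the same sequence. The coding sequences of Hba-a1 and Hba-a2 in GENCODE M21 (GRCm38) matched at 428 of 429 bases, and those of Hbb-bs and Hbb-bt at 443 of 444. The 60 coding bases around each difference are shown because they hold the only coding base by which a read could be given to 1 copy, and the capital marks that base. In the alpha pair the difference is C381T and in the beta pair C417T, with the first-named gene's base first and positions counted from 1 at the start of the coding sequence.
Hba-a1: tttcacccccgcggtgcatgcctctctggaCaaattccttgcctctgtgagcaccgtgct
Hba-a2: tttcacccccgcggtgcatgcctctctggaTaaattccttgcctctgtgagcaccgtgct
Hbb-bs: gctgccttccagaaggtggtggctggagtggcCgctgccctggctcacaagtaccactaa
Hbb-bt: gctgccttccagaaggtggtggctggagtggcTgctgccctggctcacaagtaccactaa

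The adult globins were not measured by this table. Hba-a1 had 10 counts over all 24 libraries: 4 in control-diet air library 5, 2 in DHA-diet ozone library 1, and 1 each in 4 other libraries. Hba-a2, Hbb-bs and Hbb-bt had 0 counts in every library. The rows Hbb-b1 and Hbb-b2, 2 further adult beta globin rows of the same locus, were also at 0 throughout. A count of 0 allows up to 3 counts, which is a CPM (count scaled to library size) of 0.114 to 0.166 depending on the library and covers counting error only. These values describe the rows as counted and give no level of globin RNA, so no group was compared for them.

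The spans that the table gives for the globin rows lie on top of each other. In the deposited mm39 coordinates Hba-a1 ran over chr11:32233672-32247304, which is 13633 bases against 815 bases for the gene in RefSeq (GRCm38.p6), and Hba-a2 over chr11:32233675-32247311. These spans shared 13630 bases. Hbb-bs (chr7:103475730-103477136) and Hbb-b1 shared 99.4% of the longer span, and Hbb-bt (chr7:103461731-103463131) and Hbb-b2 had the same span. Over the whole table, 549 rows shared more than 90% of their span, both ways, with another row. Of these, 481 (87.6%) were at 0 in all 24 libraries, against 16.8% of all rows and 2851 of the 17818 rows that no other row overlapped. The other globins of these loci lay mostly outside the shared spans and were low too: the embryonic Hba-x had 3 counts in total and Hbb-y 6, Hbb-bh1 and Hbb-bh2 had 0, Hbq1a had 232, and Hbq1b, which lies within the spans of Hba-a1 and Hba-a2, had 122. The part of the overlap in these zeros was not tested.

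**Figure D1:**
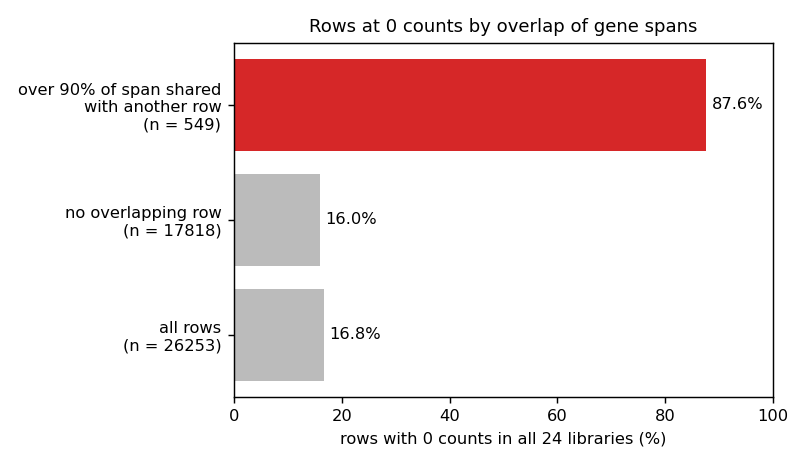
Share of table rows with 0 counts in all 24 libraries (horizontal axis, percent) for all rows, for rows that no other row overlaps, and for rows that share over 90% of their span with another row. The last class, to which the adult globin rows belong, stands at 87.6% against 16.8% for all rows.

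Bpifa5 (chr2:154004527-154010367) was close to absent, with 1 count in 24 libraries, in DHA-diet ozone library 3. No other row overlapped it. Hba-a1, Hba-a2, Hbb-bs, Hbb-bt and Bpifa5 thus did not pass the filter on low counts, and 3 of the 8 genes, Alas2, Slc4a1 and Fech, were among the 16153 genes that entered the tests. None of these 3 was overlapped by another row, apart from 30 bases that Alas2 shares with the microRNA gene Mir3620.

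Alas2 (chrX:149330413-149353619) was the most strongly expressed of the 3. Its promoter is shown because Alas2 was the gene of this set that was called for diet. The 250 bases before its start (RefSeq, GRCm38.p6, chrX:150547167-150547416, plus strand) hold 1 match to the GATA motif, written in capitals.
Alas2: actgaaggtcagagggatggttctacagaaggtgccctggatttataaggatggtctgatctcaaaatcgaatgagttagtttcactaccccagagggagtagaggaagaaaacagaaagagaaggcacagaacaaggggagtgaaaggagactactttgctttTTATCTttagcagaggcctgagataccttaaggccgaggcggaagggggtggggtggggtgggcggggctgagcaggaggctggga
The motif was searched on both strands as GATA with A or T before it and A or G after it, and 26.5% of 32851 mouse promoter windows of the same length hold at least 1 match. A promoter entry was found for 6 of the 8 genes: Hba-a1, Hba-a2 and Hbb-bs held 1 GATA match each, Hbb-bt 0 and Bpifa5 2. The windows of Hba-a1 and Hba-a2 were identical over 297 bases. These matches describe the windows and are not evidence of binding.

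In control-diet air libraries Alas2 had a lowest, median and highest level of 73.7, 98.5 and 127 CPM, with a mean of 96.5 ± 19.5 (SD, n = 6). After ozone on the control diet the levels were 47.5, 66.8 and 93.6 CPM, with a mean of 69.2 ± 15.7. On the DHA diet in air they were 101, 124 and 141 CPM, with a mean of 123 ± 13.4. After ozone on the DHA diet they were 72.0, 106 and 276 CPM, with a mean of 138 ± 81.4. The order of the means was thus DHA-diet ozone, DHA-diet air, control-diet air and control-diet ozone, and each neighbouring pair in this order overlapped. The DHA-diet ozone group split: library 4 (276 CPM) and library 1 (194 CPM) were the highest of all 24, library 3 had 127 CPM, and libraries 2, 5 and 6 lay between 72.0 and 85.8 CPM.

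Slc4a1 (chr11:102239646-102256108) was low, with 20 to 131 counts per library. Its lowest, median and highest levels were 1.82, 3.01 and 4.53 CPM in control-diet air, with a mean of 2.96 ± 0.971. After ozone on the control diet they were 0.965, 1.30 and 1.39 CPM, with a mean of 1.23 ± 0.181. All 6 of these libraries lay below all 6 air libraries of the same diet. On the DHA diet the levels were 1.68, 3.50 and 4.21 CPM in air, with a mean of 3.26 ± 1.01, and 0.884, 1.79 and 5.05 CPM after ozone, with a mean of 2.46 ± 1.75. DHA-diet ozone libraries 1 (5.05 CPM) and 4 (4.17 CPM) were again high, and the other 4 lay at or below 2.21 CPM. From the highest mean to the lowest the order was DHA-diet air, control-diet air, DHA-diet ozone and control-diet ozone, and neighbours in it overlapped.

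Fech, on chromosome 18, varied least. Its lowest, median and highest levels were 51.5, 56.2 and 61.8 CPM in control-diet air (mean 56.3 ± 4.46) and 47.0, 52.9 and 55.7 CPM in control-diet ozone (mean 52.2 ± 3.34). On the DHA diet they were 54.7, 59.9 and 61.4 CPM in air (mean 59.1 ± 2.66) and 50.1, 57.5 and 67.2 CPM after ozone (mean 59.0 ± 6.54). All groups overlapped, and DHA-diet ozone libraries 4 (67.2 CPM) and 1 (66.0 CPM) were the highest of the 24. Per kilobase of exon in GENCODE M21, the mean levels over 24 libraries were 52.4 CPM for Alas2, 7.87 for Fech and 0.545 for Slc4a1. Alas1, the form of the first heme enzyme that tissues other than red cells use, stood at 185 CPM per kilobase.

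**Figure D2:**
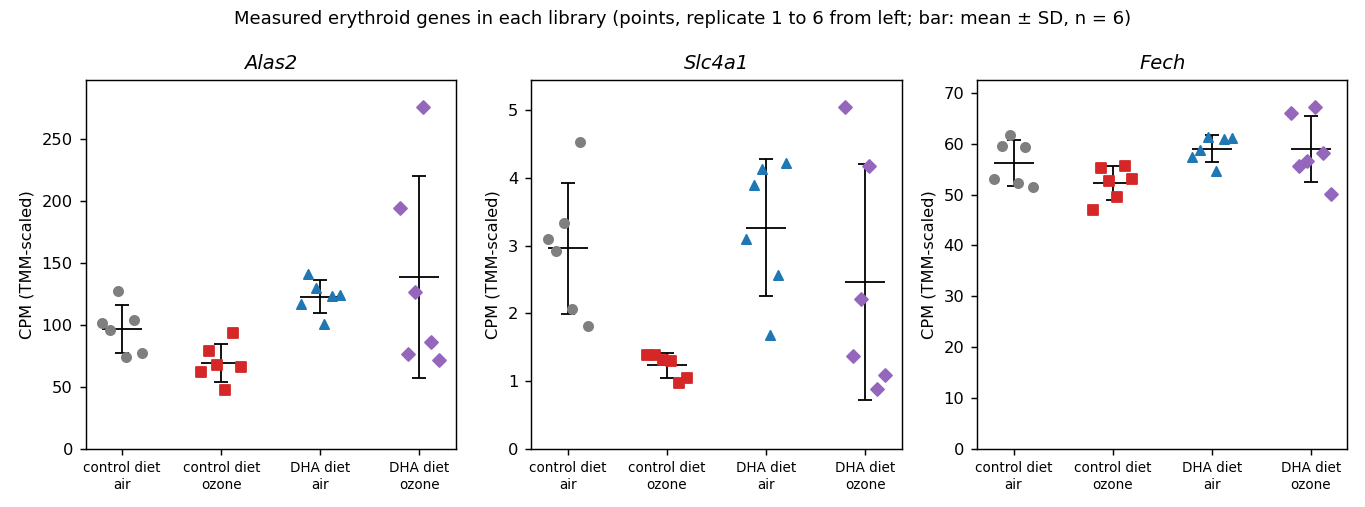
Level of Alas2, Slc4a1 and Fech (vertical axes, CPM with TMM-scaled library sizes, from 0) in each of the 24 libraries by diet and exposure; points are libraries in replicate order and black bars the mean ± SD of 6. The control-diet ozone libraries (0.965 to 1.39 CPM) lie below all control-diet air libraries for Slc4a1, and DHA-diet ozone libraries 1 and 4 stand above the rest of their group in all 3 panels.

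Ozone on the control diet lowered Slc4a1. Its log2 fold change was −1.26 ± 0.34 (SE; adjusted p = 0.0125 by edgeR's quasi-likelihood test over all 16153 genes), from 2.96 to 1.23 CPM. In this comparison 16.8% of all genes were called at an adjusted p under 0.05 (8.93% higher and 7.87% lower). In 3.26% of genes all ozone libraries lay below all air libraries, as they did for Slc4a1, and in 4.5% all lay above. Alas2 had a fitted log2 fold change of −0.48 ± 0.24 (95% interval −0.97 to 0.014, adjusted p = 0.178) and Fech one of −0.11 ± 0.06 (adjusted p = 0.265), so neither passed. The call held in all 24 fits that left out 1 library (adjusted p from 0.00429 to 0.0306). Control-diet air libraries 1, 2 and 3 stood apart from all others in the mean log2 CPM of 79 ribosomal protein genes (6.00 to 6.07 against 6.14 to 6.45). Without them, with 3 air libraries left, Slc4a1 had a log2 fold change of −1.19 with an adjusted p of 0.0780. Without control-diet air libraries 4 to 6 it had −1.35 with an adjusted p of 0.0208.

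On the DHA diet none of the 3 tested genes was called for ozone, in a comparison where 23.7% of all genes were (12.7% higher and 11% lower). The log2 fold change of Slc4a1 was −0.39 ± 0.32 (95% interval −1.03 to 0.26, adjusted p = 0.404), that of Alas2 0.18 ± 0.23 (−0.30 to 0.66, adjusted p = 0.630), and that of Fech −0.00088 ± 0.06 (−0.13 to 0.13, adjusted p = 0.993). None of the 3 had an unadjusted p under 0.05. These values rested on DHA-diet ozone libraries 1 and 4. Without both, a choice made after their high values were seen, Slc4a1 had a log2 fold change of −1.25 (adjusted p = 0.00293) and Alas2 one of −0.44 (adjusted p = 0.0550). The test of the difference between the diets called no gene at all in edgeR (988 of 16153 genes had an unadjusted p under 0.05; DESeq2 called 2 higher and 3 lower). The interaction was 0.88 ± 0.47 on the log2 scale for Slc4a1 (95% interval −0.08 to 1.84, adjusted p = 0.851) and 0.65 ± 0.33 for Alas2 (−0.03 to 1.34, adjusted p = 0.833).

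Averaged over both diets, ozone lowered Slc4a1 by a log2 fold change of −0.82 ± 0.23 (adjusted p = 0.00716), in a comparison that called 35.4% of all genes (18.5% higher and 16.9% lower). Of the 12 ozone libraries, 9 lay below all air libraries and 1 above them. The averaged change was −0.15 ± 0.17 for Alas2 (adjusted p = 0.515) and −0.05 ± 0.04 for Fech (adjusted p = 0.368).

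The DHA diet went with higher Alas2 when both exposures were averaged: the log2 fold change was 0.67 ± 0.17 (adjusted p = 0.0195), from a mean of 82.8 CPM on the control diet to 131 CPM on the DHA diet. In that comparison 7.06% of genes were called (3.19% higher and 3.87% lower). Of the 12 DHA-diet libraries, 4 lay above all control-diet libraries and 0 below all of them. The call was lost without control-diet air libraries 1 to 3 (0.76, adjusted p = 0.0790) and without DHA-diet ozone libraries 1 and 4 (0.36, adjusted p = 0.0618). Fech had 0.12 ± 0.04 (adjusted p = 0.0917) and Slc4a1 0.58 ± 0.23 (adjusted p = 0.127).

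Within a single exposure no gene of the set was called for diet. In filtered air, where 1.15% of genes were called (0.724% higher and 0.427% lower), the log2 fold change was 0.35 ± 0.24 for Alas2 (adjusted p = 0.480), 0.14 ± 0.31 for Slc4a1 (adjusted p = 0.865) and 0.07 ± 0.06 for Fech (adjusted p = 0.620), none with an unadjusted p under 0.05. After ozone, edgeR called 0% of the genes, although 2260 had an unadjusted p under 0.05 and DESeq2 called 38 higher and 37 lower. Alas2 had 1.00 ± 0.24 (95% interval 0.51 to 1.49, unadjusted p = 0.000274, adjusted p = 0.116), Slc4a1 1.02 ± 0.35 (0.31 to 1.73, adjusted p = 0.208) and Fech 0.18 ± 0.06 (0.05 to 0.31, adjusted p = 0.231). Alas2 passed without DHA-diet ozone library 2 (adjusted p = 0.0373). The values of these 3 genes after ozone thus lay on the higher side on the DHA diet but did not pass over all genes, and 3 of 6 DHA-diet ozone libraries lay above all control-diet ozone libraries for Alas2, 3 for Slc4a1 and 4 for Fech.

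**Figure D3:**
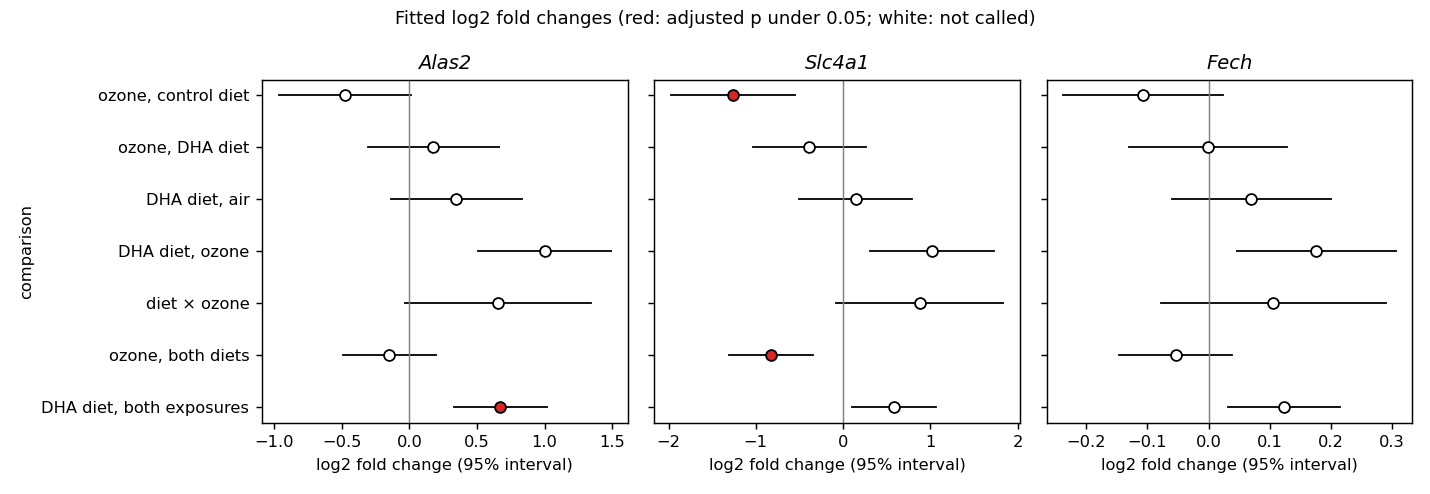
Fitted log2 fold changes of Alas2, Slc4a1 and Fech (horizontal axes, each with its own scale; lines are 95% intervals) in the 7 comparisons (rows). The calls, in red, are Slc4a1 for ozone on the control diet (−1.26) and over both diets (−0.82), and Alas2 for the DHA diet over both exposures (0.67).

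Over all libraries, differences between groups included, the 3 genes moved together. Over 24 libraries the log2 CPM of Alas2 and Fech correlated with Pearson's r = 0.885 and Spearman's rho = 0.884, and that of Alas2 and Slc4a1 with r = 0.763 and rho = 0.803 (permutation p = 1e-05 for each, the smallest that the permutations can give; 1.5e-05 adjusted over the 3 pairs). Slc4a1 and Fech had r = 0.704 (permutation p = 0.0001, also after adjustment) and rho = 0.696 (p = 0.00038, also after adjustment). The permutations shuffled libraries across the 4 groups, so these p-values cannot separate shared group means from variation between libraries of a group. Without the 2 libraries farthest from the median of the first-named gene, r was 0.856, 0.790 and 0.746 in the same order. Within the groups of 6, r for Alas2 and Fech lay between 0.718 and 0.905. For Alas2 and Slc4a1 it was 0.794 and 0.840 in air on the control and DHA diets, and −0.467 and 0.924 after ozone on the same diets, and Slc4a1 and Fech likewise had r = −0.526 in control-diet ozone, where Slc4a1 had only 20 to 36 counts per library.

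Among the genes whose log2 CPM was most like that of Alas2 over the 24 libraries were Bpgm (r = 0.957), Fam220a (0.947), Ube2l6 (0.915) and Ube2o (0.794). Bpgm makes 2,3-bisphosphoglycerate, which lowers the oxygen affinity of haemoglobin, and Ube2o is a ubiquitin ligase of reticulocytes. For Fech they included Fam220a (0.834), Bpgm (0.829), Epb41 (0.801), which encodes protein 4.1 of the membrane skeleton, and Ube2l6 (0.777). For Slc4a1 they included Bpgm (0.862), Trim10 (0.852), Unc13b (0.776) and Plod2 (0.745). These coefficients describe 24 libraries that share group means and are given without a test. After the group means were removed, r with Alas2 was 0.946 for Bpgm, 0.922 for Fam220a and 0.664 for Ube2o, and r with Slc4a1 was 0.622 for Unc13b and 0.655 for Plod2.

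DHA-diet ozone libraries 4 and 1 ranked first and second of the 24 for Alas2, Fech, Bpgm, Fam220a and Ube2l6. Bpgm reached 137 and 117 CPM in them against 61.6 to 102 CPM in the other libraries. Fam220a reached 59.7 and 51.4 CPM against 29.7 to 47.8 CPM. Not every red cell gene was high there: Ahsp, the chaperone of free alpha chains, ranked 9th in library 4 and 15th in library 1, and Sptb, the beta spectrin of the membrane skeleton, 18th and 17th. The summed CPM of 12 platelet markers was highest of the DHA-diet ozone group in the same libraries. It was 158 in library 1 and 142 in library 4 against 88.4 to 134 in the others. Control-diet air libraries 1 (146) and 3 (143) also reached such sums, with Alas2 at 101 and 127 CPM. The summed CPM of 12 neutrophil markers was 399 and 246 against 184 to 482. That of 11 airway secretory markers, without the club cell gene Scgb1a1, was 7509 in library 1, the lowest of the 24. It was 12183 in library 4 against 12144 to 14193 in the rest of the group. The part of these markers in the Alas2 values was not tested.

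**Figure D4:**
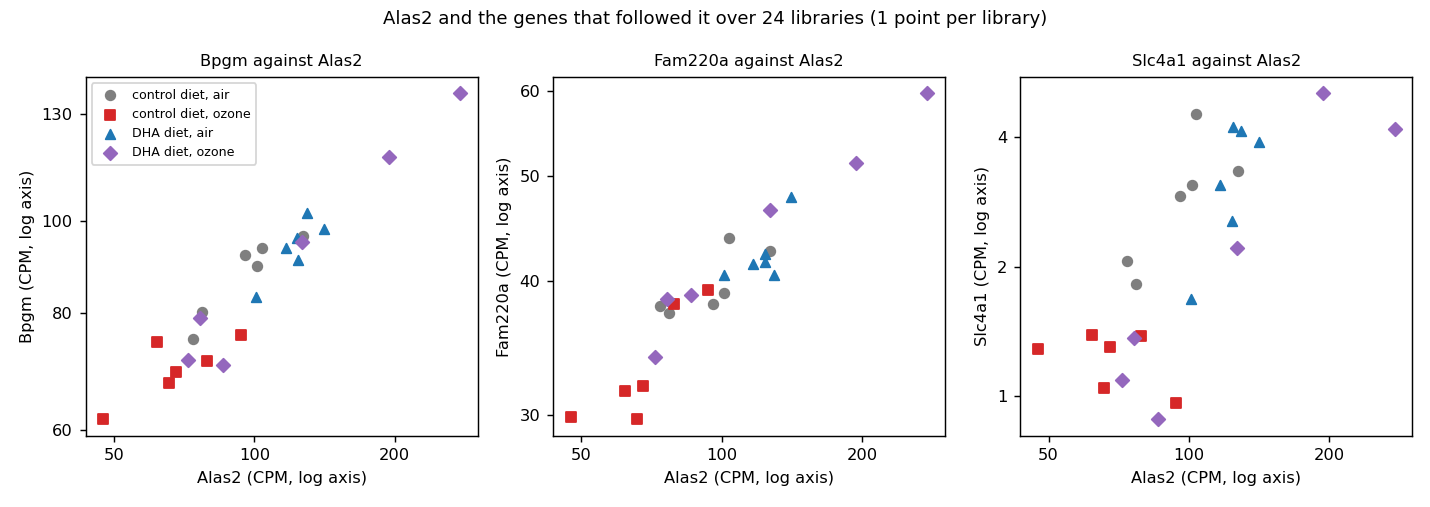
Bpgm, Fam220a and Slc4a1 (vertical axes, CPM, log scale) against Alas2 (horizontal axes, CPM, log scale), 1 point per library, marked by group. Bpgm and Fam220a, chosen for likeness to Alas2, follow it up to DHA-diet ozone libraries 1 (194 CPM Alas2) and 4 (276 CPM). Slc4a1 follows Alas2 with more scatter.

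Of the genes of the red cell membrane and its skeleton, 15 of 20 listed were tested. Ozone on the control diet lowered 3 and raised 0, with Slc4a1 and Sptb among the 3, where 7.87% of all genes were called lower. Sptb had 8.10 to 13.8 CPM in the 6 air libraries and 5.72 to 9.61 CPM in the 6 ozone libraries, which overlapped, with its highest levels in air libraries 1 (13.8 CPM) and 2 (13.1 CPM), and changed by −0.49 ± 0.16 (adjusted p = 0.0338). The median log2 fold change of the 15 was −0.28 against −0.0055 for all genes tested. Without control-diet air libraries 1 to 3, a single gene (1 of the 15) was called lower. On the DHA diet, where 11% of all genes were called lower, 1 of the 15 was, with a list median of −0.17 against −0.011 for all genes. It was Ermap, an erythroid membrane protein, at −0.81 ± 0.29 (adjusted p = 0.0418). That call was lost with no filter on low counts, with a filter of 1 CPM in 6 libraries, in a fit of the 2 groups alone and in DESeq2. It was also lost without any 1 of DHA-diet air libraries 4, 5 and 6 or DHA-diet ozone libraries 2, 3, 4 and 5. Averaged over diets, where 16.9% of all genes were lower, 6 of 15 were lower and 0 higher, with Tspo2 (−1.10 ± 0.34, adjusted p = 0.0134) and Dmtn, dematin (−0.23 ± 0.07, adjusted p = 0.0130), among them. Over both exposures, where 7.06% of all genes were called, the DHA diet went with 1 call among the 15, Epb41 (0.22 ± 0.06, adjusted p = 0.0198). The Epb41 call was lost without DHA-diet ozone libraries 1 and 4 and without control-diet air libraries 1 to 3.

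All 16 genes of heme synthesis were tested. Ozone on the control diet raised 3, with Alad, the second enzyme of the pathway, and Cpox, coproporphyrinogen oxidase, among them. It lowered 2, Ppox, the enzyme just before ferrochelatase, and Slc25a37, a mitochondrial iron importer, and 11 were not called. Over all genes 8.93% were called higher and 7.87% lower. Cpox rose by 0.36 ± 0.06 (adjusted p = 0.00029) and Alad by 0.28 ± 0.05 (adjusted p = 0.000505), and Ppox changed by −0.35 ± 0.07 (adjusted p = 0.00168). On the DHA diet 5 were higher, with Alad, Cpox, Slc25a39 and Glrx5 among them, and 2 lower, Ppox and Slc25a37, where 12.7% of all genes were called higher and 11% lower. Averaged over diets, where 18.5% of all genes were called higher and 16.9% lower, 8 were higher and 2 lower. Alas1 was among the higher at 0.21 ± 0.08 (adjusted p = 0.0365), while the erythroid Alas2 was at −0.15. Of the 16, the DHA diet over both exposures went with 1 call, Alas2 itself, where 7.06% of all genes were called. The medians of the list for ozone were 0.097 on the control diet and 0.12 on the DHA diet, against −0.0055 and −0.011 for all genes.

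Of 21 late erythroid and reticulocyte genes, 19 were tested. Ozone on the control diet raised Tfrc, the transferrin receptor, which dividing cells of many types carry, by 0.67 ± 0.08 (adjusted p = 1.38e-05), and lowered Mkrn1 (−0.16 ± 0.06, adjusted p = 0.0450). The other 17 were not called, where 8.93% of all genes were called higher and 7.87% lower. On the DHA diet ozone went with 2 higher and 1 lower, where 12.7% of all genes were called higher and 11% lower. Averaged over diets, 3 were higher and 3 lower, where 18.5% of all genes were called higher and 16.9% lower. Tfrc had 51.3 to 75.6 CPM in control-diet air and 94.6 to 112 CPM after ozone, and was also raised by ozone on the DHA diet (0.41 ± 0.08, adjusted p = 0.000735) and by the DHA diet in air (0.42 ± 0.08, adjusted p = 0.0133, called among the 1.15% of genes). The number called lower for ozone on the control diet varied from 0 to 5 with the settings, among them leaving out single libraries. Averaged over exposures, where 3.19% of all genes were called higher and 3.87% lower, the DHA diet went with 4 higher and 2 lower. Bpgm was among the higher at 0.27 ± 0.08 (adjusted p = 0.0461). The count fell to 1 higher and 1 lower without DHA-diet ozone libraries 1 and 4 and to 0 without control-diet air libraries 1 to 3. With library totals in place of TMM it was 2 higher. Leaving out 1 library also brought it to 1 or 2 higher, for control-diet air libraries 1, 2 and 4, control-diet ozone libraries 1, 3, 4 and 6, DHA-diet air libraries 1, 2, 3 and 5, and DHA-diet ozone libraries 1 and 4. Ahsp was not called, with 0.31 ± 0.31 for ozone on the control diet (adjusted p = 0.541).

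Of 11 erythroid transcription and signalling genes, 8 were tested. Over all genes, 7.87% were called lower after ozone on the control diet and 11% on the DHA diet. The calls among the 8 fell on genes that endothelial and other cells use as well. Ldb1 was lower after ozone on the control diet (−0.25 ± 0.05, adjusted p = 0.00172), and Ldb1 (−0.24 ± 0.05, adjusted p = 0.00144) and Lmo2 (−0.19 ± 0.07, adjusted p = 0.0462) on the DHA diet. Of these 2 calls on the DHA diet, 1 was lost with no filter, with a filter of 1 CPM in 6 libraries, in a fit of the 2 groups alone and in limma-voom. The count also fell to 1 without any 1 of control-diet air libraries 2 and 4, control-diet ozone libraries 1, 4 and 5, DHA-diet air libraries 1, 2, 3 and 5, or DHA-diet ozone libraries 1, 2, 3 and 5. Ldb1 lies within spans of small RNA rows in the deposited coordinates. Of 12 tested genes that clear haemoglobin or break down heme, ozone raised 4 on the control diet, where 8.93% of all genes were called higher, and 7 on the DHA diet, where 12.7% were. It lowered 0 on either. Hpx, hemopexin, which binds free heme, had 1.19 to 2.30 CPM in control-diet air and 3.05 to 6.80 CPM after ozone. Its log2 fold change was 1.29 ± 0.33 (adjusted p = 0.00803), and 1.55 ± 0.32 on the DHA diet (adjusted p = 0.000915). On the DHA diet Hpx had 1.33 to 2.52 CPM in air. After ozone on that diet it had 14.3 CPM in library 1, against 3.14 to 6.13 CPM in the rest of the group. Hp, haptoglobin, which binds free haemoglobin and also rises in inflammation, changed by 0.39 ± 0.08 (adjusted p = 0.00197) and 0.40 ± 0.08 (adjusted p = 0.000875). Without control-diet air libraries 1 to 3, only 1 of the 12 was called higher on the control diet.

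**Figure D5:**
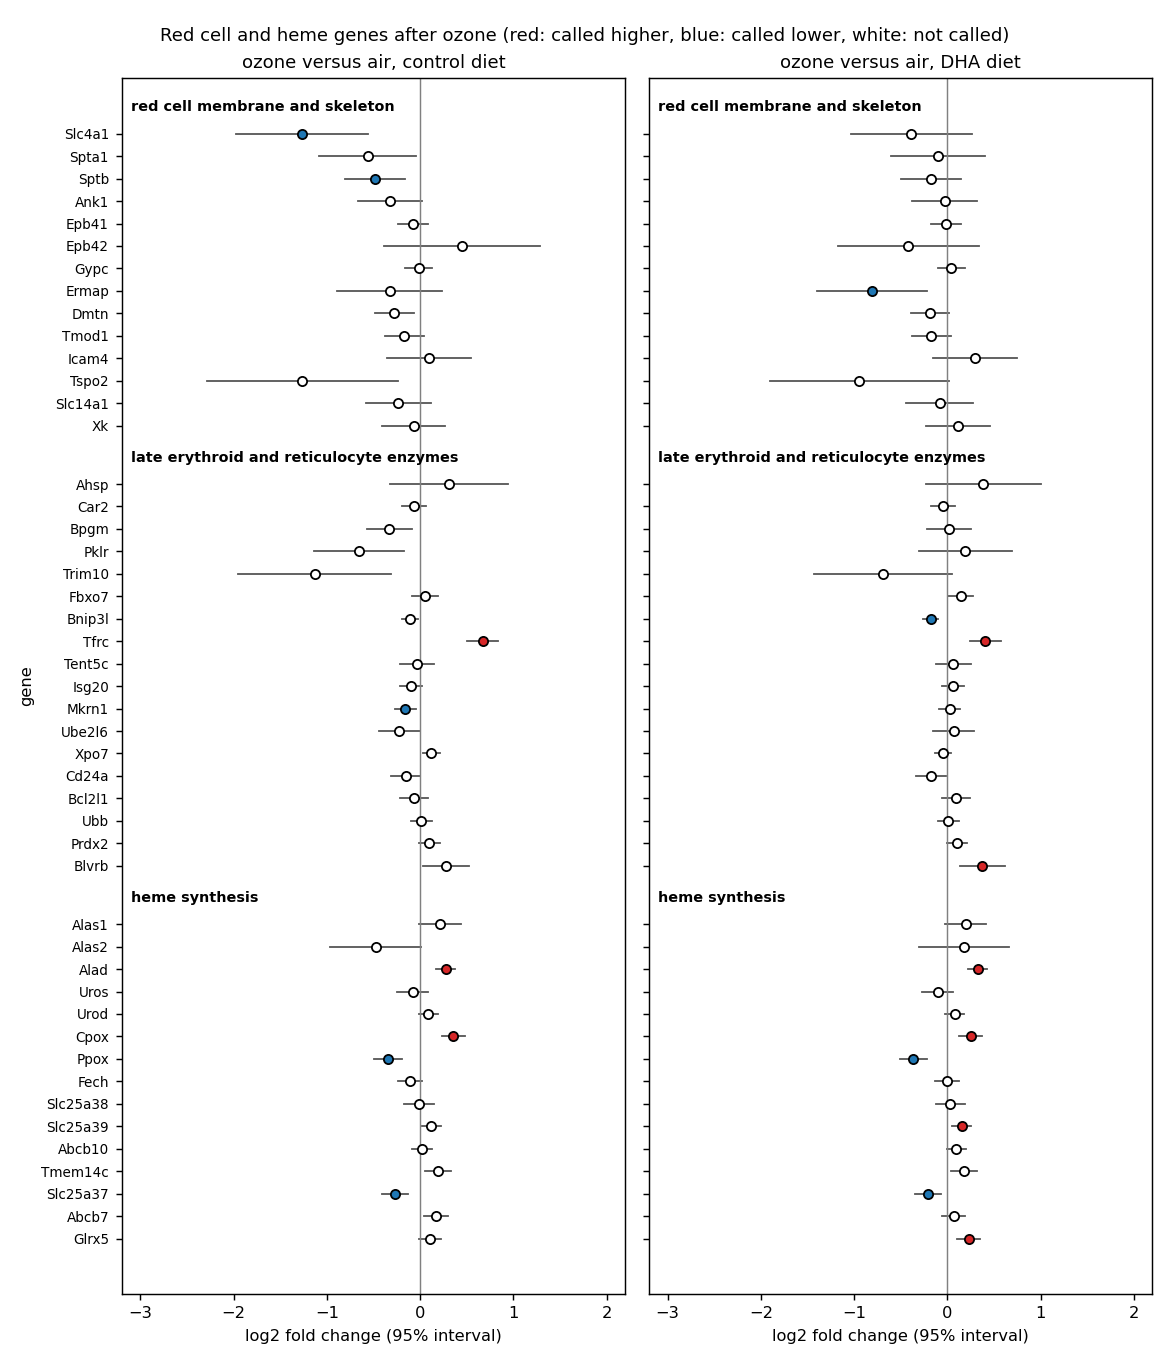
Log2 fold changes for ozone against air (horizontal axes; lines are 95% intervals) of tested genes of the red cell membrane, late erythroid and heme synthesis lists (rows, some not shown), on the control diet (left) and the DHA diet (right). Slc4a1 and Sptb are called lower on the left and Ermap on the right (a call lost in DESeq2), while Alad and Cpox are called higher on both.

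Markers of other cells were counted in the same comparisons. On the control diet 16.8% of all genes were called (8.93% higher and 7.87% lower), and on the DHA diet 23.7% (12.7% higher and 11% lower). Of 12 platelet markers 2 were lower on the control diet and 3 higher on the DHA diet, with medians of −0.41 and 0.21. Of 11 neutrophil markers 1 was higher on the control diet and 8 on the DHA diet. The summed platelet markers ran from 96.7 to 146 CPM (air) and 82.3 to 117 CPM (ozone) on the control diet, and from 77.1 to 123 CPM (air) and 88.4 to 158 CPM (ozone) on the DHA diet. The summed neutrophil markers ran from 169 to 333, 184 to 321, 142 to 188 and 184 to 482 CPM in the same order. Of 8 lung epithelial markers 3 were higher after ozone on each diet, and of 8 endothelial markers 1 was lower on each. Of 9 cardiac muscle markers 2 were lower on the control diet and 0 on the DHA diet, with medians of −0.32 and −0.06, and of 10 adipocyte markers likewise 2 and 0, with medians of −0.50 and −0.08. The medians of the cardiac, adipocyte and platelet lists on the control diet were thus below the −0.28 of the red cell membrane list. The summed cardiac markers ran from 1709 to 2857 CPM in control-diet air, highest in libraries 1 (2812 CPM) and 2 (2857 CPM), where Sptb was also highest, and from 1204 to 2001 CPM after ozone. The summed adipocyte markers ran from 181 to 312 CPM in air and 138 to 225 CPM after ozone on that diet. The label of lung tissue was met by these markers, with 27844 to 42587 CPM for the summed epithelial markers without the club cell gene Scgb1a1. The part of a changed cell mixture in the values of Slc4a1 and Sptb was not tested.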

How the data were processed

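Per the submitters' processing notes, reads were handled in Partek, with STAR and HTSeq named as tools and mm39 as build. Their versions, the annotation and whether counting used strand: not given in the sources used here. RNA came from a Qiagen RNeasy Mini Kit and libraries from Genewiz, per the labels. The authors deposited unscaled counts for each gene and library, whole in all 26253 rows. The row of Scgb1a1 alone was rounded, to 3 significant digits. Genes were filtered with filterByExpr (minimum count 10, minimum total 15), normalised with TMM and tested with edgeR 4.0.16 in R 4.3.3, using 1 mean per group over 24 libraries (20 residual degrees of freedom). Calls are at a Benjamini-Hochberg adjusted p under 0.05 over 16153 genes. Log2 CPM used a prior count of 2. The fit was tested on simulated data. Alternatives used DESeq2 1.42.0, limma 3.58.1, other scalings and filters, and left-out libraries. From each list up to 4 called genes per comparison were named by smallest p, and others were chosen after their values were seen. The 8 genes and the 15 lists were chosen with earlier results of these data known. Correlations used 100000 permutations. Sequences came from RefSeq and GENCODE tables of GRCm38, not from the build of the counts. Some genes of the lists are counted but not reported here by name.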

Additional observations from a re-analysis of the deposited data

Results flagged for a closer look

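Among 12 genes examined in 4 groups each, 48 groups in all, 3 had a single library far from the other 5 of its group, where chance gives about 1 in 20. Fam220a, which followed Alas2, had 47.8 CPM in DHA-diet air library 2, against 40.5 to 42.4 CPM in the others. Trim10, which followed Slc4a1, had 1.04 CPM in control-diet ozone library 2, against 0.209 to 0.502 CPM. Plod2 had 45.2 CPM in control-diet air library 3, against 47.3 to 48.1 CPM. None of these flags fell on Alas2, Slc4a1 or Fech. The rule looks at the gap between the most extreme library and its nearest neighbour. It can thus miss 2 libraries that are high together, as DHA-diet ozone libraries 4 (276 CPM) and 1 (194 CPM) were for Alas2.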

How the results depend on the processing

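Of 1024 values recomputed over 37 settings, 987 stayed the same. For a fold change this means the same direction and the same side of the threshold. For a count of called genes it means the same count in each direction. The count of called genes among Alas2, Slc4a1 and Fech moved as follows. For ozone on the control diet it was 2 in a fit of the 2 groups alone, where Alas2 passed, 0 without control-diet air libraries 1 to 3, and 2 without DHA-diet ozone libraries 1 and 4, a setting chosen after seeing the data. With those 2 libraries out it was 1 for ozone on the DHA diet, 2 for ozone over both diets and 0 for the DHA diet over both exposures, and the latter was also 0 without control-diet air libraries 1 to 3. Leaving out 1 library at a time gave 0 to 1 for the DHA diet after ozone (1 without DHA-diet ozone library 2), 1 to 2 for the DHA diet over both exposures (2 without DHA-diet ozone library 6), and no other change of these counts. The direction turned for ozone on the DHA diet in Fech, which lay near 0 throughout: 0.0031 without a filter, 0.0027 with at least 1 CPM in 6 libraries, 0.0021 without control-diet air libraries 1 to 3, 0.0046 without libraries 4 to 6, and −0.042 to 0.037 leaving out 1 library. It also turned in Alas2, at −0.030 with limma-voom, −0.44 without DHA-diet ozone libraries 1 and 4, and −0.14 to 0.31 leaving out 1 library. The cause was not tested. Replicate numbers did not pair the libraries (mean correlation −0.0169, 0 of 24 closest to their own number), and with the number as a replicate block Slc4a1 for ozone on the control diet was −1.27, with the same 1 call. Under the block, late erythroid genes called higher for the DHA diet over both exposures numbered 1 in place of 4, and red cell membrane genes called lower for ozone on the DHA diet 0 in place of 1. Slc4a1, at 20 to 131 counts per library, is limited by depth, and the adult globins cannot be read from these rows at all.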
